A study of Homo sapiens with 6 samples.

Results

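The genes described here are 41 mucins and enzymes of mucin-type O-glycosylation, chosen by gene symbol out of 60960 features in a table of bulk RNA sequencing. They are 10 mucin cores, 17 polypeptide N-acetylgalactosaminyltransferases (GALNT genes), 7 genes that extend or branch the glycan core and 7 sialyltransferases, and all 41 were matched to a row of the table through its Ensembl identifier. The cells were NCI-H1975, an established human line of non-small cell lung cancer, in a siGFPT2 group (small interfering RNA against GFPT2, 3 libraries) and a siNC group (control small interfering RNA, 3 libraries). No dose or duration of the transfection is given in the labels, and none says whether the 3 libraries of a group are separate cultures. The p-values below therefore speak of variation among these libraries alone, and this may be technical in part. The text on RNA extraction also names almonertinib, EGF and an EGFR knockdown, which are not among the treatment labels of the 6 samples.

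Mucins are secreted or membrane-bound proteins with long stretches rich in serine and threonine. A GALNT enzyme starts each mucin-type glycan by moving GalNAc from UDP-GalNAc to a serine or threonine in the Golgi. C1GALT1 then adds galactose to make core 1, other enzymes branch or extend it, and sialyltransferases cap it. UDP-GalNAc is made from UDP-GlcNAc, the end product of the hexosamine pathway whose entry step GFPT2 catalyses, and the study's stated aim was to compare gene expression between the groups.

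Levels are FPKM (fragments scaled to exon length in kilobases and to the counted fragments of the library), so that genes can be compared per length. Between 21899321 and 27234880 fragments were counted per library. GFPT2 itself stood at 8.94, 7.58 and 8.72 FPKM in siGFPT2 libraries, against 10.1, 9.30 and 8.28 FPKM in siNC libraries, so the groups overlapped and the level of the targeted gene did not separate the labels (limma on log2(FPKM + 0.1), log2 difference -0.13 with a 95% interval from -0.43 to 0.17, adjusted p = 0.9999). Of 6 epithelial markers, 6 had a mean of 1 FPKM or more over the 6 libraries. Among them CDH1 was at 67.9 ± 15.3 FPKM in siGFPT2 and 69.1 ± 22.3 FPKM in siNC (SD, n = 3 each). Of 4 lung lineage markers only NKX2-1 passed 1 FPKM (29.4 ± 2.07 in siGFPT2, 30.3 ± 1.80 in siNC). The other 3 did not, and of these the surfactant genes SFTPB and SFTPC reached at most 0.078 and 0.028 FPKM. Of 5 markers of secretory cells only AGR2 passed 1 FPKM (10.1 ± 1.34 in siGFPT2, 9.99 ± 3.45 in siNC), SPDEF and FOXA3 reached at most 0.213 and 0.250 FPKM, and TFF3 and SCGB1A1 were at 0 reads in all 6 libraries. Of 4 leukocyte markers 1 passed 1 FPKM and 3 did not, PTPRC and CD3E among them with at most 0.013 and 0.017 FPKM. None of 3 endothelial markers passed 1 FPKM, and of 4 fibroblast markers only COL1A1 did (5.74 to 8.23 FPKM).

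Of the 41 genes, 20 reached a mean of 1 FPKM over the 6 libraries and entered the test, 6 lay between 0.1 and 1 FPKM and 15 lay under 0.1 FPKM. By role, those at 1 FPKM or more were 2 of 10 mucin cores (MUC1 and MUC16), 11 of 17 GALNT genes, 4 of 7 genes of core extension and 3 of 7 sialyltransferases. GALNT2 was the most abundant of the 41 in 6 of 6 libraries. The promoters of 4 of the genes are printed here to show the sequence around the start of the most abundant gene (GALNT2), of the leading mucin core (MUC1), of the chaperone of core 1 synthesis (C1GALT1C1) and of the mucin with the lowest level (MUC2). They run from 250 bases before to 50 bases after the most upstream start that RefSeq lists on GRCh38.p14, 5′ to 3′ on the strand of the gene, and capitals mark each CG dinucleotide.
GALNT2, chr1:230066988-230067287, plus strand: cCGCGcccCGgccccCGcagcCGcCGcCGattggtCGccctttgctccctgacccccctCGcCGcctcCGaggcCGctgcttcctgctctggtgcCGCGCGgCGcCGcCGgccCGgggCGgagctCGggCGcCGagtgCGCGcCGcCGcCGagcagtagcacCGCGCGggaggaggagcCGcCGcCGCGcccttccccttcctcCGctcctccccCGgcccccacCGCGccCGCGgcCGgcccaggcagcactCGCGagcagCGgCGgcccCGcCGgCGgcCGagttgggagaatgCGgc
MUC1, chr1:155192866-155193165, minus strand: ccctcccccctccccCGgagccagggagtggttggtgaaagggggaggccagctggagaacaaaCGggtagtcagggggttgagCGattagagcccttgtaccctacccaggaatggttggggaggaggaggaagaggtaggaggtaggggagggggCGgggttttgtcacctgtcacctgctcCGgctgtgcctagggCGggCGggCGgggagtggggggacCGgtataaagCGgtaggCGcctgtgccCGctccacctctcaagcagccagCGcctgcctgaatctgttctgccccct
C1GALT1C1, chrX:120630005-120630304, minus strand: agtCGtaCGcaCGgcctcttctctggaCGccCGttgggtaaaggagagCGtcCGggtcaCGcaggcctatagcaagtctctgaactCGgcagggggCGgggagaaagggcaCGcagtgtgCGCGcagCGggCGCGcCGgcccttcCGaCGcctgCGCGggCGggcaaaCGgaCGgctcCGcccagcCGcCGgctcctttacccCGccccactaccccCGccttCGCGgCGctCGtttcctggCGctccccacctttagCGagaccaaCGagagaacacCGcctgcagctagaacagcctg
MUC2, chr11:1074624-1074923, plus strand: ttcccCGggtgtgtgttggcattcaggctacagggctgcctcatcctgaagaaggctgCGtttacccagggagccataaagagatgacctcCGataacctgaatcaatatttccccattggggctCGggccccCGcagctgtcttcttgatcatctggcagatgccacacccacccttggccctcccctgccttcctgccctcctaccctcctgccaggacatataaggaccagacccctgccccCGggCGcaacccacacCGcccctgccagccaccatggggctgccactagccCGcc

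These windows hold 51 CG dinucleotides in GALNT2, 13 in MUC1, 37 in C1GALT1C1 and 9 in MUC2, where the median over 27305 genes was 13. RefSeq windows were found for 26 of the 41 genes. More than 10 CG dinucleotides were present in 12 of 15 members at 1 FPKM or more and in 5 of 11 members below it, against 54.3% of all genes. The shares over all genes given here were not split by level. These counts therefore do not set the members apart from other genes at like levels. GALNT14, GALNT16 and ST6GALNAC3, with 35, 37 and 35 CG dinucleotides, were all under 0.1 FPKM, whereas GALNT11 was at 7.10 ± 0.469 FPKM in siGFPT2 and 7.06 ± 0.496 FPKM in siNC with 2. The letters GGGCGG, searched on both strands, were in 12 of those 15 and 6 of those 11 windows and in 44.5% of all windows. TATAAA, also searched on both strands, was in 1 of the 26 windows, that of MUC1, and in 12.0% of all windows. GGGCGG holds a CG, so the counts of both overlap, and the start that these cells use was not measured. Some windows, those of GALNT2, GALNT11 and GALNT14 among them, lie inside the bounds of the gene in GENCODE 29. Others, those of MUC16, GALNT13, GCNT1 and GCNT4 among them, lie wholly upstream of those bounds. The MUC16 window starts at 9065702, beyond the end of the gene at 8981342. The GALNT11 window begins at 152074787 and the gene at 152025674, so its window does not cover that start.

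**Figure D1:**
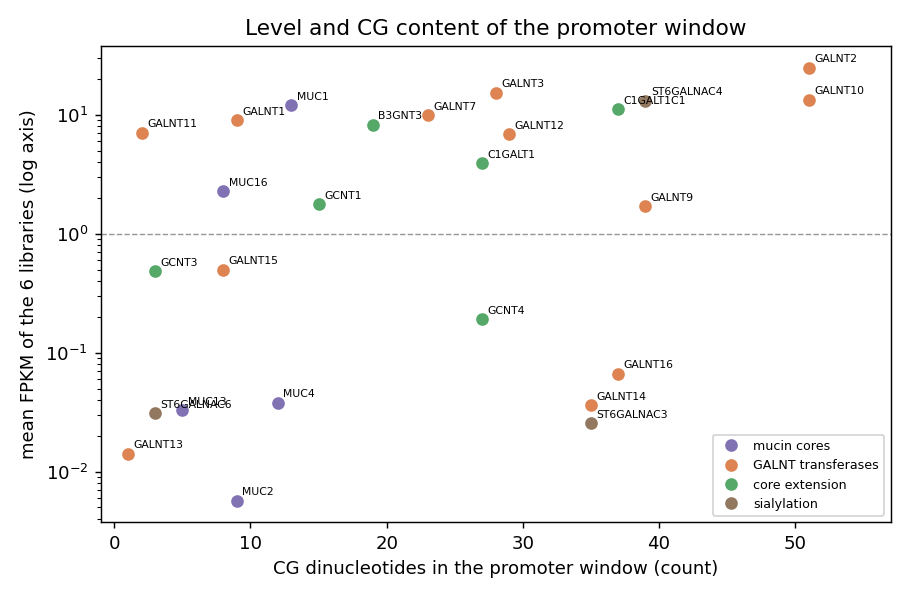
Mean level over the 6 libraries (FPKM, log axis) against the count of CG dinucleotides in the promoter window, 1 point for each of the 26 members with a RefSeq window, coloured by role, with a dashed line at 1 FPKM. Genes with over 30 CG dinucleotides stand both at the top (GALNT2, 51) and near the bottom (GALNT14, 35).

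MUC1 and MUC16 carried nearly all of the summed FPKM of the 10 mucin cores. MUC1 (ENSG00000185499, chromosome 1, 155185824 to 155192916 in GENCODE 29 on GRCh38) encodes a transmembrane mucin of epithelial surfaces. It was at 13.6, 9.96 and 11.1 FPKM in siGFPT2 libraries 1, 2 and 3, against 14.2, 13.7 and 9.74 FPKM in siNC libraries 1, 2 and 3. The lowest library was in siNC and the groups overlapped. The log2 difference was -0.11 ± 0.19 (SE), with a 95% interval from -0.56 to 0.34. MUC16 (ENSG00000181143, chromosome 19, 8848844 to 8981342), the very large membrane mucin that carries the CA125 antigen, was at 2.75, 1.09 and 2.37 FPKM in siGFPT2, against 2.98, 3.18 and 1.25 FPKM in siNC. Its 2 low libraries were siGFPT2 replicate 2 and siNC replicate 3, and it had the widest interval of the 20 genes (log2 difference -0.23, -1.31 to 0.84). With siGFPT2 replicate 2 left out the difference was 0.15, and with siNC replicate 3 left out it was -0.64. Over the mucin cores, MUC1 made up 81.1%, 86.9% and 80.3% of the summed FPKM in siGFPT2, against 80.5%, 78.8% and 85.7% in siNC. The share of MUC16 was 9.53% in siGFPT2 replicate 2 and 11.0% in siNC replicate 3, and between 16.4% and 18.3% in the other 4 libraries.

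The gel-forming mucins were close to 0. MUC5AC and MUC5B, the main secreted mucins of airway mucus, were at 0.026 ± 0.015 and 0.058 ± 0.011 FPKM in siGFPT2 and at 0.021 ± 0.011 and 0.062 ± 0.012 FPKM in siNC. MUC2, the main mucin of the intestine, rested on 1 to 3 reads per library, and MUC6, a gastric mucin, on 6 to 14. Of the membrane mucins, MUC4 held 9 to 27 reads over an exon length of 21021 bases, MUC13 held 1 to 4 and MUC15 held 0 to 3. MUC20 lay between 0.161 and 0.226 FPKM, and 42.8% of its GENCODE 29 exon bases also lie in exons of MUC20-OT1, itself at 0.610 to 0.778 FPKM, so that reads there cannot be assigned to 1 gene.

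**Figure D2:**
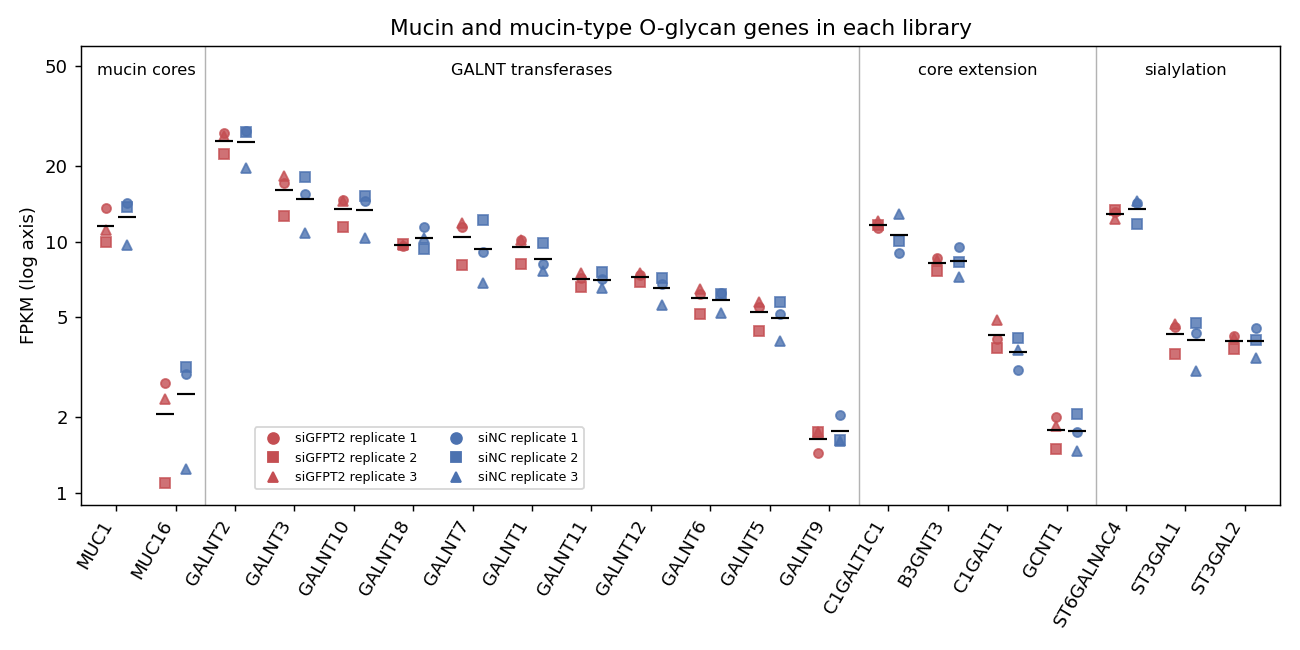
FPKM (log axis) of the 20 genes with a mean of at least 1 FPKM, by role and then by level, 1 marker per library with a bar at the mean of the 3 libraries, siGFPT2 in red on the left of each pair and siNC in blue on the right. The ranges of the groups overlap for 20 of 20 genes, and MUC16 has its low points in siGFPT2 replicate 2 and siNC replicate 3.

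The GALNT family was broadly expressed, and no single isoform made up most of it. GALNT2 (ENSG00000143641, chromosome 1, 230057990 to 230282124), a widely expressed transferase that can start glycans on unmodified peptides, was at 26.9, 22.3 and 26.3 FPKM in siGFPT2, against 27.6, 27.3 and 19.7 FPKM in siNC. It rested on 3713 to 4718 reads per library, and its log2 difference was 0.029 ± 0.17 (SE; 95% interval -0.36 to 0.42). GALNT3 (chromosome 2, 165747591 to 165794682), which glycosylates the phosphate hormone FGF23, was at 17.1, 12.7 and 18.2 FPKM in siGFPT2, against 15.5, 18.1 and 10.8 FPKM in siNC. For both genes the lowest library was siNC replicate 3 and the next lowest siGFPT2 replicate 2. GALNT10 (chromosome 5, 154190730 to 154420984), which prefers peptides that already carry GalNAc, was at 14.7, 11.4 and 14.5 FPKM in siGFPT2, against 14.5, 15.3 and 10.3 FPKM in siNC. GALNT7 (chromosome 4), another transferase for glycopeptides, had 11.5, 8.07 and 11.9 FPKM in siGFPT2, against 9.07, 12.1 and 6.84 FPKM in siNC. Its log2 difference of 0.18 was the largest of the 11 GALNT genes tested, with an interval from -0.40 to 0.76. GALNT18 (chromosome 11) differed in pattern, with 9.57, 9.78 and 9.74 FPKM in siGFPT2 inside the siNC range of 11.5, 9.33 and 10.3 FPKM.

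The next genes of the family were GALNT1, GALNT11, GALNT12, GALNT6 and GALNT5. GALNT1 (chromosome 18), a widely expressed initiating transferase like GALNT2, was at 10.1, 8.17 and 10.1 FPKM in siGFPT2, against 8.14, 9.88 and 7.61 FPKM in siNC. GALNT12 (chromosome 9) was at 7.37, 6.91 and 7.48 FPKM in siGFPT2, against 6.77, 7.17 and 5.597 FPKM in siNC, with a log2 difference of 0.16 (-0.14 to 0.47). GALNT12 shares 21.1% of its exon bases with an antisense gene of GENCODE 29, and the labels do not say whether strand was kept. GALNT11 (chromosome 7), a transferase that acts on Notch receptors, had 1 of the narrowest ranges, from 6.59 to 7.52 FPKM in siGFPT2 and from 6.55 to 7.54 FPKM in siNC. GALNT6 (chromosome 12), a close relative of GALNT3, averaged 5.95 ± 0.709 FPKM in siGFPT2 and 5.89 ± 0.608 FPKM in siNC, and GALNT5 (chromosome 2) 5.23 ± 0.717 FPKM in siGFPT2 and 4.98 ± 0.885 FPKM in siNC. GALNT9 (chromosome 12), known mainly from brain, was the lowest of those tested at 1.45, 1.74 and 1.76 FPKM in siGFPT2, against 2.05, 1.62 and 1.61 FPKM in siNC.

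As shares of the summed FPKM of the 17 genes, GALNT2 made up 21.8% to 24.1%, GALNT3 12.1% to 15.1% and GALNT10 11.6% to 12.7% in the 6 libraries. The 3 together made up 45.7% to 50.4%. The summed level was 118, 97.9 and 120.5 FPKM in siGFPT2, against 114, 121 and 89.2 FPKM in siNC, so that it varied more between libraries of a group than between the group means of 112 ± 12.5 FPKM in siGFPT2 and 108 ± 16.8 FPKM in siNC. The order of the isoforms was firm in places. GALNT2 lay above GALNT3, and GALNT3 above GALNT10, in 6 of 6 libraries. GALNT6 was rank 13 and GALNT5 rank 14 of the 20 genes in every library. GALNT18 and GALNT7 changed places in 3 of 6 libraries, and GALNT11 and GALNT12 in 2, so these neighbours were not separated.

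**Figure D3:**
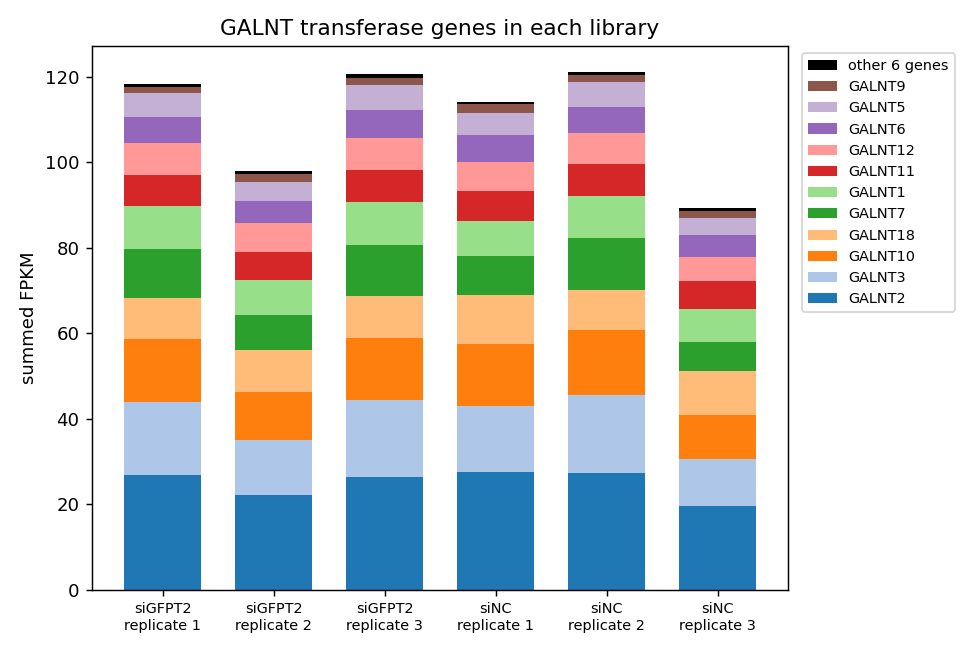
Stacked bars of the FPKM of the GALNT genes in each library, siGFPT2 on the left and siNC on the right, with the 6 genes under 1 FPKM joined in black at the top. The total is lowest in siNC replicate 3 (89.2) and siGFPT2 replicate 2 (97.9), while GALNT2 keeps 21.8% to 24.1% of it in each bar.

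The 6 remaining GALNT genes reached at most 0.542 FPKM. GALNT15 was the highest of them at 0.497 ± 0.024 FPKM in siGFPT2 and 0.497 ± 0.049 FPKM in siNC. GALNT16, GALNT8, GALNT14, GALNT4 and GALNT13 reached at most 0.102 FPKM in any library. GALNT4, a transferase for glycopeptides, held 4, 4 and 5 reads in siGFPT2, against 1, 3 and 0 in siNC. Of its exon bases, 93.2% also lie in POC1B-GALNT4, a gene that joins it to its neighbour and was itself at 0 to 0.057 FPKM. Reads in the shared exons cannot be assigned to either gene, and the level of GALNT4 is therefore uncertain. GALNT8 shares 62.7% of its exon bases with 2 other genes. GALNT14 held 1, 3 and 1 reads in siGFPT2, against 6, 5 and 6 in siNC. GALNT14 was lower and GALNT4 higher in siGFPT2 with groups that did not overlap, out of 21 members under 1 FPKM, at reads too few for the test. Among all features above 0 reads and under 1 FPKM, 3.31% were lower and 2.53% higher in this way. With no filter on low values limma gave 1 of the 41 genes an unadjusted p under 0.05, against 2.04% of all features, and called 0 (0%). That gene was GALNT14, with a log2 difference of -0.45 (-0.77 to -0.13, unadjusted p = 0.0131, limma adjusted p = 0.99995).

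The genes of core 1 were both expressed, and those of other cores were low. C1GALT1C1 (ENSG00000171155, chromosome X, 120625793 to 120630150) encodes Cosmc, the chaperone that C1GALT1 needs to fold. It was at 11.3, 11.7 and 12.0 FPKM in siGFPT2, against 8.98, 10.1 and 12.8 FPKM in siNC, so that the siGFPT2 libraries lay within the siNC range. Its log2 difference was 0.15 ± 0.15 (SE; 95% interval -0.21 to 0.50). Without siNC replicate 3, the highest library, it was 0.29 (0.026 to 0.55, unadjusted p = 0.0357, limma adjusted p = 0.810), and without both that library and siGFPT2 replicate 2 it was 0.29 (0.059 to 0.52, unadjusted p = 0.0215, limma adjusted p = 0.720). Those fits gave an unadjusted p under 0.05 to 520 and 751 of all features, against 84 with every library in. C1GALT1 (chromosome 7, 7156934 to 7248651), the core 1 galactosyltransferase, was at 4.09, 3.78 and 4.86 FPKM in siGFPT2, against 3.09, 4.12 and 3.71 FPKM in siNC. It had the largest log2 difference of the 20 genes in either direction except MUC16, at 0.22 ± 0.16 (SE), and its interval from -0.16 to 0.60 includes 0. C1GALT1C1 was 2.45 to 3.46 times as high as C1GALT1 in the 6 libraries, per length.

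GCNT1 (chromosome 9), which makes core 2 by adding GlcNAc to core 1, was at 2.00, 1.5003 and 1.86 FPKM in siGFPT2, against 1.75, 2.07 and 1.47 FPKM in siNC. Its relatives GCNT3, the mucin-type branching enzyme of core 2 and core 4, and GCNT4 were lower, at 0.391 to 0.571 and 0.167 to 0.224 FPKM. B3GNT6, the core 3 synthase, held 6 to 10 reads per library. B3GNT3 (chromosome 19), which extends core 1 with GlcNAc, was at 8.63, 7.64 and 8.44 FPKM in siGFPT2, against 9.54, 8.33 and 7.22 FPKM in siNC (log2 difference -0.014, -0.33 to 0.31). Its siGFPT2 libraries lay inside the siNC range.

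The sialyltransferases were led by ST6GALNAC4. ST6GALNAC4 (ENSG00000136840, chromosome 9, 127907886 to 127917038) adds sialic acid to GalNAc of the sialylated core 1 glycan. It was at 13.1, 13.3 and 12.3 FPKM in siGFPT2, against 14.3, 11.7 and 14.5 FPKM in siNC, and the siGFPT2 range lay within that of siNC (log2 difference -0.058, -0.34 to 0.23). ST3GAL1 (chromosome 8), which caps the galactose of core 1, was at 4.57, 3.56 and 4.71 FPKM in siGFPT2, against 4.35, 4.75 and 3.06 FPKM in siNC. ST3GAL2 (chromosome 16), with the same linkage, was at 4.21, 3.73 and 4.14 FPKM in siGFPT2, against 4.55, 4.07 and 3.44 FPKM in siNC. ST3GAL1 was above ST3GAL2 in 3 of 6 libraries, so their order was not settled. The ST6GALNAC4 share of the summed level of the 7 sialyltransferases ran from 54.1% to 67.1%, with the highest value in siNC replicate 3.

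Of the other sialyltransferases, ST6GALNAC2 lay just under the filter at 0.709 ± 0.045 FPKM in siGFPT2 and 0.867 ± 0.261 FPKM in siNC, and 57.2% of its exon bases are shared with 2 other genes. ST6GALNAC1, which makes the sialyl-Tn antigen, held 0 to 3 reads per library, and ST6GALNAC3 held 1 to 7. ST6GALNAC6, which lies beside ST6GALNAC4 on chromosome 9, held 1 to 5 reads. In GENCODE 29, 47.0% of its exon bases also belong to ENSG00000257524, a gene at 0 to 0.029 FPKM, so its level is uncertain too.

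None of the 20 genes passed the test for a difference between siGFPT2 and siNC. With limma over 12896 features, 0 of 20 had an adjusted p under 0.05 (0% of all features tested), 0 of 20 had an unadjusted p under 0.05 (0.651% of all features), and 0 of 20 had groups that did not overlap (2.16% of all features higher and 1.36% lower). Limma-voom on recovered reads also called 0 of 20, with 0 at an unadjusted p under 0.05 (0.465% of all features). The adjusted p was 0.9999 for each of the 20. The log2 differences ran from -0.23 (MUC16) to 0.22 (C1GALT1), 14 above 0 and 6 below, with a median of 0.026, where the median over all features tested was 0.033 and 61.4% of them lay above 0. With median centring 6 of the 14 fell below 0 and the median of the 20 was -0.027. By role the medians were -0.17 for the 2 mucin cores, 0.031 for the 11 GALNT genes, 0.086 for the 4 genes of core extension and 0.0089 for the 3 sialyltransferases. The 95% interval lay within a 2-fold change in either direction for 19 of 20 genes (all but MUC16; 92.8% of all features) and within a 1.5-fold change for 16 of 20 (61.1% of all features). The 4 whose interval reached beyond 1.5-fold were MUC16, GALNT3, GALNT7 and C1GALT1.

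**Figure D4:**
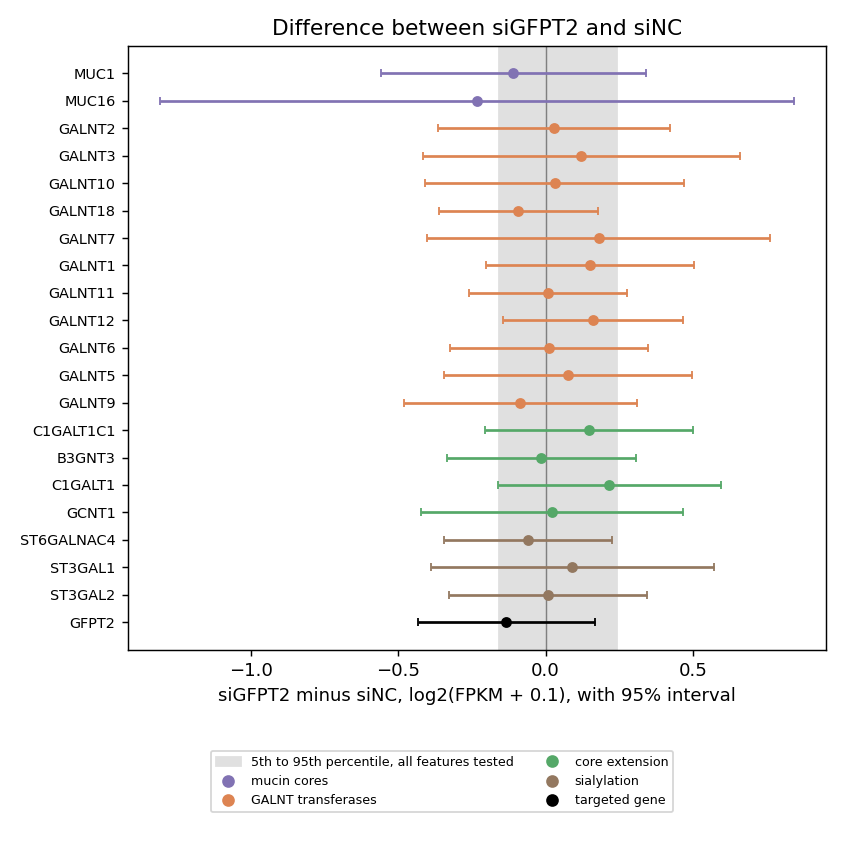
Difference between siGFPT2 and siNC on the log2(FPKM + 0.1) scale for the 20 genes and GFPT2, with 95% intervals from limma, coloured by role, over a grey band from the 5th to the 95th percentile of all features tested (-0.16 to 0.24). Each interval includes 0, and that of MUC16 is the widest (-1.31 to 0.84).

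The largest differences were between single libraries and not between the groups. siGFPT2 replicate 2 and siNC replicate 3 were both below the other 4 libraries for 13 of the 20 genes and both above them for 0, against 35.4% and 29.8% of all features tested. The 7 genes without this pattern were C1GALT1, C1GALT1C1, GALNT1, GALNT12, GALNT18, GALNT9 and ST6GALNAC4. The median deviation of the 20 genes from their own mean over the 6 libraries was -0.14 in siGFPT2 replicate 2 and -0.24 in siNC replicate 3 on the log2 scale, and 0.083 to 0.12 in the other 4. Over all features tested the median was -0.014 in siGFPT2 replicate 2, -0.044 in siNC replicate 3 and -0.018 to 0.046 in the other 4. These libraries also differed in how the level of all features moved with exon length. Per doubling of the length the log2 deviation changed by -0.055 in siGFPT2 replicate 2 and by -0.081 in siNC replicate 3, and by 0.027 to 0.048 in the other 4. Pearson's r of the deviation with the logarithm of the length was -0.29 and -0.28 over all features, and 0.18 to 0.27 in the other 4. The deviations of each gene sum to 0 over the 6 libraries, so slopes below 0 in some libraries require slopes above 0 in others.

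The members followed the same order. C1GALT1C1, the shortest at 1808 bases, had deviations of 0.073 in siGFPT2 replicate 2 and 0.21 in siNC replicate 3, and MUC16, the longest at 43830 bases, had -0.89 and -0.71. Across the 20 genes, which share these libraries and are not independent replicates, Pearson's r between the logarithm of the length and the deviation was -0.78 in siGFPT2 replicate 2 and -0.69 in siNC replicate 3. Without MUC16 it was -0.55 and -0.54 over 19 genes. In the other libraries r ran from 0.33 to 0.76, and from 0.13 to 0.59 without MUC16. Signs opposite to those of the low libraries follow in part from centring each gene on its own mean. The part of this length trend in the differences between the groups was not tested. With both low libraries left out, limma called 0 of the 20 genes and 1 had an unadjusted p under 0.05, C1GALT1C1, as given above.

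**Figure D5:**
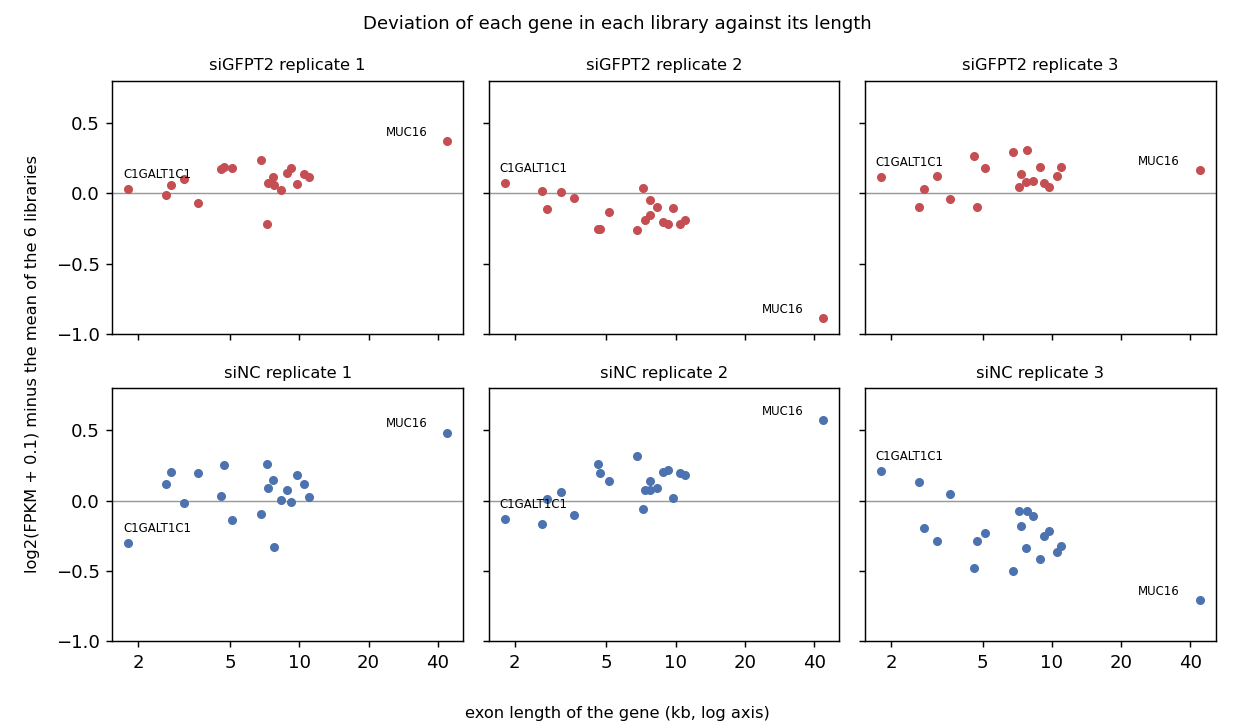
Deviation of each of the 20 genes from its mean over the 6 libraries, log2(FPKM + 0.1), against its exon length (kb, log axis), 1 panel per library with siGFPT2 in the upper row and siNC in the lower. In siGFPT2 replicate 2 and siNC replicate 3 the points fall toward long genes, down to -0.89 and -0.71 for MUC16.

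Other genes around UDP-GalNAc gave the same count. Of 11 genes of its supply, GFPT2 included, 10 reached 1 FPKM and 0 passed limma's test in either direction, with a median log2 difference of 0.077. The Golgi nucleotide sugar transporter SLC35A2 averaged 19.6 ± 0.744 FPKM in siGFPT2 and 19.2 ± 2.40 FPKM in siNC. UAP1, which makes UDP-GlcNAc and UDP-GalNAc, averaged 16.2 ± 0.766 FPKM in siGFPT2 and 14.7 ± 0.839 FPKM in siNC, and its relative UAP1L1 averaged 11.3 ± 0.027 FPKM in siGFPT2 and 11.3 ± 1.11 FPKM in siNC.

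Of 17 other genes for enzymes that use UDP-GalNAc, or are related to them, 8 reached 1 FPKM and 0 passed the test, with a median of 0.017. The most abundant belong to chondroitin sulfate synthesis. CHPF averaged 75.2 ± 5.57 FPKM in siGFPT2 and 79.1 ± 8.17 FPKM in siNC, and CHPF2 43.6 ± 1.75 FPKM in siGFPT2 and 43.3 ± 4.84 FPKM in siNC. CHSY1 averaged 6.61 ± 1.40 FPKM in siGFPT2 and 6.62 ± 1.85 FPKM in siNC, and CSGALNACT2 3.86 ± 0.678 FPKM in siGFPT2 and 3.50 ± 0.528 FPKM in siNC. B4GALNT4, which adds GalNAc to terminal GlcNAc and was picked for mention from its values, was the only one of these 8 whose groups did not overlap. Among all features tested, 1.36% were lower and 2.16% higher in siGFPT2 in this way. B4GALNT4 was at 2.47, 2.89 and 2.56 FPKM in siGFPT2, against 3.05, 3.14 and 3.31 FPKM in siNC, with a log2 difference of -0.26 (-0.55 to 0.04, unadjusted p = 0.0777, limma adjusted p = 0.9999). Of 12 other mucins, 2 reached 1 FPKM and 0 passed the test. They were CD164, a small mucin-like membrane protein (16.8 ± 2.31 FPKM in siGFPT2, 15.7 ± 2.53 in siNC), and OVGP1, an oviduct glycoprotein (1.06 ± 0.214 FPKM in siGFPT2, 1.03 ± 0.085 in siNC).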

How the data were processed

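Total RNA was enriched for mRNA on oligo(dT) beads and sequenced as paired ends, per the labels' protocols. Per the submitters' processing notes, the tools were HISAT2, featureCounts and DESeq2, with no versions. The build and gene models behind the table were not given in the sources used here. The authors deposited 1 table of FPKM values. Each of its 6 columns was tied to its sample by name, and 60463 of 60605 Ensembl identifiers were given symbols. The members and lists were chosen with earlier results of these data known. Every member at 1 FPKM or more was to be named with all libraries, and of other lists up to 4 of the most abundant genes. Some genes of the other lists are not reported here.

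Depths and reads were worked out from the step size of low FPKM values. Each of the 36981 features above 0 gave whole reads within 0.0001, with the GENCODE 29 exon length for 19937 and otherwise the smallest length that fitted, which can understate reads. The test (limma 3.58.1, R 4.3.3) used log2(FPKM + 0.1), a mean-variance trend, group as the only term, no further scaling, a minimum mean of 1 FPKM, two-sided, with Benjamini-Hochberg adjustment over 12896 features at 0.05. Differences on this scale understate changes of low genes. The fit was tested on simulated counts that varied independently between libraries, so that test does not cover trends shared by libraries. The alternatives were other pseudocounts, filters and scalings, a replicate block, leaving libraries out, and limma-voom on recovered reads. Coordinates and exon overlaps come from GENCODE 29 (GRCh38).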

Additional observations from a re-analysis of the deposited data

How the results depend on the processing

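In each of the 15 alternatives 0 of the members fitted and 0 of all features were called. The count of members at an unadjusted p under 0.05 was 1 without siNC replicate 3, 1 without both siNC replicate 3 and siGFPT2 replicate 2 (C1GALT1C1 in each) and 1 with no filter (GALNT14), and 0 otherwise. The median log2 difference of the 20 genes ran from -0.089 to 0.14 with 1 library left out. Direction was kept in every alternative that fitted them by 7 genes (C1GALT1, C1GALT1C1, GALNT1, GALNT12, GALNT18, MUC1 and ST6GALNAC4), of which C1GALT1 lay under the minimum of 5 FPKM and has no value there. Median centring turned GALNT2 (-0.024), GALNT10 (-0.022), GALNT11 (-0.045), GALNT6 (-0.040), ST3GAL2 (-0.044) and GCNT1 (-0.030), and quantile normalization GALNT11 (-0.034), GALNT6 (-0.033), ST3GAL2 (-0.041) and GCNT1 (-0.022). With 1 library left out, or both of those named above, differences that changed sign ran from -0.64 to 0.15 for MUC16, -0.13 to 0.11 for GALNT2, -0.086 to 0.28 for GALNT3, -0.14 to 0.15 for GALNT10, -0.023 to 0.39 for GALNT7, -0.045 to 0.059 for GALNT11, -0.075 to 0.11 for GALNT6, -0.067 to 0.19 for GALNT5, -0.18 to 0.023 for GALNT9, -0.11 to 0.084 for B3GNT3, -0.096 to 0.14 for GCNT1, -0.095 to 0.22 for ST3GAL1 and -0.097 to 0.10 for ST3GAL2. The cause was not tested. By replicate number, Pearson's r of the deviations from the group means was 0.47, -0.72 and -0.57 for numbers 1, 2 and 3. The highest r was 0.79, between siGFPT2 replicate 2 and siNC replicate 3. Through the group means these low libraries weigh on every r, so r cannot tell whether the samples were prepared in pairs. With the replicate block 0 members and 0 features were called, and 63 features in place of 84 had an unadjusted p under 0.05. Without siNC replicate 3 that count was 520, without both low libraries 751, with a mean of at least 5 FPKM 16 and with no filter 754, and over all libraries left out in turn it ran from 50 to 520. For MUC16, GALNT3, GALNT7 and C1GALT1 a 1.5-fold change lies inside the interval and is not excluded. The intervals do not say what size of change would have passed the test, for these or the other genes.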

Other observations

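Downstream of the listed enzymes, 19 further genes of O-glycan extension and capping were looked at, of which 14 reached 1 FPKM and 0 passed limma's test, with a median log2 difference of 0.061. The galactosyltransferases B4GALT1 and B4GALT5 averaged 36.1 ± 4.40 and 32.7 ± 6.59 FPKM in siGFPT2 and 35.1 ± 6.07 and 32.1 ± 10.4 FPKM in siNC (SD, n = 3 each). CMAS, which activates sialic acid, was at 11.8 ± 1.28 FPKM in siGFPT2 and 10.3 ± 1.65 FPKM in siNC, and the sialyltransferase ST3GAL4 at 4.31 ± 0.291 FPKM in siGFPT2 and 4.18 ± 0.393 FPKM in siNC.

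Of 11 membrane proteins that carry O-glycans and are not mucins, 10 reached 1 FPKM and 0 passed the test, with a median log2 difference of -0.0026. The syndecans SDC4 and SDC1 were at 102.5 ± 2.29 and 65.2 ± 0.400 FPKM in siGFPT2 and at 100.03 ± 3.03 and 65.7 ± 3.87 FPKM in siNC. LAMP1, a lysosomal membrane protein, averaged 63.2 ± 0.731 FPKM in siGFPT2 and 64.5 ± 3.70 FPKM in siNC. CD44, the hyaluronan receptor, averaged 58.5 ± 6.98 FPKM in siGFPT2 and 59.3 ± 9.14 FPKM in siNC.

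GALNT17, a GALNT gene outside the 17 listed, was named after its values were seen. It lay under 1 FPKM and outside the test. It was at 0.189, 0.218 and 0.248 FPKM in siGFPT2, against 0.332, 0.401 and 0.392 FPKM in siNC, from 21 to 29 reads in siGFPT2 and 36 to 47 in siNC. In the fit with no filter on low values its log2 difference was -0.58 (95% interval -1.13 to -0.03), with an unadjusted p of 0.0419 and a limma adjusted p of 0.99995. Of all features, 2.04% had an unadjusted p under 0.05 in that limma fit.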
